A study of Mus musculus with 2 samples.

Results

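The genes described are 10 of the 32285 in the deposited count tables, chosen by symbol for their place in vascular endothelial growth factor (VEGF) and angiopoietin signaling. They are the ligands *Vegfa* and *Pgf* with their receptors *Kdr* and *Flt1*, the ligands *Angpt1* and *Angpt2* with their receptor *Tek* and its relative *Tie1*, the co-receptor *Eng*, and *Esm1*. All 10 had a row in both libraries, and the rule used no measured value. Single cells sorted for tdTomato were sequenced from mice of genotype Clec3b.creERT2; Ai14.R26.tdTomato, in which tamoxifen-activated Cre, knocked in at *Clec3b*, permanently switches on the reporter. The intact library came from unfractured femoral diaphyses and their surrounding muscle, and the callus library from femoral fracture calluses, both taken 3 weeks after a stabilized fracture. Tamoxifen preceded surgery by 2 weeks, and both libraries carried both alleles, so neither is an unlabelled control. Per the series design both came from the same 3 littermates, described as male, the intact limb of animals that had been injured in the other, and tissue was pooled within each library. There is thus 1 library per condition, the mice cannot be told apart, and no test between conditions was possible.

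The comparison asks which cells sorted from intact and healing tissue carry the ligands and which carry the receptors. Levels are scaled counts (CPM): the unique molecular identifiers (UMIs) of a gene summed over the cells of a type, per 1000000 UMIs of those cells. Values in parentheses are 95% intervals, which cover counting error only. A filter of 500 genes and 10% mitochondrial UMIs left 1207 intact cells of 7518795 UMIs and 3295 callus cells of 34287541 UMIs, with 1 cell barcode in common. Among fibroblasts of at least 5000 UMIs, 97.5% in the intact library and 98.1% in the callus had *Xist*, although the mice are described as male. Cell types are marker-gated, so "fibroblast" below means fibroblast-like, and BMSC a bone marrow stromal cell-like cell. The gates held 29 intact and 101 callus endothelial cells, 285 and 214 fibroblasts, and 1 and 46 BMSCs. Median depths of the endothelial cells were 2463 and 4739 UMIs, below the 7414 and 7867 of fibroblasts. *Clec3b* itself was missing from the intact endothelial cells (0 UMIs) and gave 6 UMIs in a single endothelial cell of the callus and 13 UMIs in 3 of 46 BMSCs, against 1484 and 1284 CPM in fibroblasts. Erythroid markers summed to 2699 and 351.5 CPM in endothelial cells of intact and callus and to 1049 and 180.6 CPM in fibroblasts. At least 3 of them were in 16 of 29 and 9 of 101 endothelial cells and in 164 of 285 and 13 of 214 fibroblasts. The part of erythroid RNA in the values below was not tested. Mature neutrophil markers summed to 6741 and 3764 CPM in endothelial cells of intact and callus and to 2451 and 1839 CPM in fibroblasts. Their part in endothelial values was not tested, and without fibroblasts of at least 3 such markers *Vegfa* was at 156 CPM intact and 83.6 CPM callus, against 153 and 81.9 CPM with them. The study found no meaningful tdTomato expression in its haematopoietic and endothelial populations. It judged them to be artifacts of flow cytometry and left non-mesenchymal clusters out of its lineage analysis. The tdTomato transcript was not analysed here, so the endothelial and blood cells below are cells of the sort and are not described as *Clec3b* descendants.

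As background, VEGF-A binds the receptor tyrosine kinases encoded by *Kdr* and *Flt1* on endothelial cells, and placental growth factor (*Pgf*) binds the latter. Angiopoietin 1 activates the TIE2 receptor encoded by *Tek* and steadies vessels, angiopoietin 2 can act against it, and TIE1 modulates TIE2. Bone repair depends on new vessels, and the axis is best known as signaling from surrounding cells to endothelium.

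The promoters of 5 receptors and targets are shown because their levels split them in the results: *Kdr*, *Flt1* and *Tie1* were nearly restricted to endothelial cells, whereas *Tek* and *Esm1* were also high in a stromal type. Each line gives 250 bases before and 50 after the RefSeq gene start in GRCm38.p6 (the assembly also called mm10), in the gene's own direction. Capitals mark the letters GGAAG or, on the other strand, CTTCC. They are a form of the core bound by ETS factors, which are known for endothelial transcription.
*Kdr*, chr5:75978406-75978705, minus strand: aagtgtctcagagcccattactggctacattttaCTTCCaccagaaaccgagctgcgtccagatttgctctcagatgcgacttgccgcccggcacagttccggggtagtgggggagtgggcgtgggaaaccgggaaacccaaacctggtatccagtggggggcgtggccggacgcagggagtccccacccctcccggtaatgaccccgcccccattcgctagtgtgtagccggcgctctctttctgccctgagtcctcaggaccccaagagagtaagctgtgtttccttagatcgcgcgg
*Flt1*, chr5:147725962-147726261, minus strand: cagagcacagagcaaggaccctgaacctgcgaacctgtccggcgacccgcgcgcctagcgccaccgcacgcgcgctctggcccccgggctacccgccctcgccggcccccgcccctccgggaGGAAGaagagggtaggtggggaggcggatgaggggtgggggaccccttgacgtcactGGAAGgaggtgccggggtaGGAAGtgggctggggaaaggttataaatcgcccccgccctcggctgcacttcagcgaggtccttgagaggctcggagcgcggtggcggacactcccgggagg
*Tie1*, chr4:118489800-118490099, minus strand: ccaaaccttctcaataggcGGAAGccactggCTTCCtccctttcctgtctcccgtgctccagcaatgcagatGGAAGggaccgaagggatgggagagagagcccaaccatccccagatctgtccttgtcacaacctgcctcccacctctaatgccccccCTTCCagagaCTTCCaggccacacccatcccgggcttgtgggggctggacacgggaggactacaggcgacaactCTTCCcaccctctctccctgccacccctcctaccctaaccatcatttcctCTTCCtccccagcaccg
*Tek*, chr4:94739039-94739338, plus strand: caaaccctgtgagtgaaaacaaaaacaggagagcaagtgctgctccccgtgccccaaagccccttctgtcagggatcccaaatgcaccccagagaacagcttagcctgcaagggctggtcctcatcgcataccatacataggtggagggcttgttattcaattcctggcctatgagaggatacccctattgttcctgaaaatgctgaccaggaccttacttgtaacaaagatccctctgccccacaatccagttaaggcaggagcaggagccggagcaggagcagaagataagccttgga
*Esm1*, chr13:113209409-113209708, plus strand: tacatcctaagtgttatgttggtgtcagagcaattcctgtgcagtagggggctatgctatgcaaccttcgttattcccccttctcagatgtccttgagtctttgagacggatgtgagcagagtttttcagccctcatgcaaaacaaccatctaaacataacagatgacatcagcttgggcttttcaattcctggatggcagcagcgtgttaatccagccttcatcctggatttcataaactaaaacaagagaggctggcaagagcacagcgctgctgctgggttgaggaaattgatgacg
GGAAG or CTTCC was found 7 times in the *Tie1* window, 3 times in that of *Flt1*, 1 time in that of *Kdr* and in neither the *Tek* nor the *Esm1* window. The shorter letters GGAA or TTCC were not counted, and the printed *Tek* and *Esm1* windows hold them. Of 32851 promoter windows of the same length, 71.4% held at least 1 match, 16.0% at least 3 and 0.186% at least 7, so a single match is common. *Vegfa* and *Pgf* had 1 match each and *Eng* had 2. ACGTG, or CACGT on the other strand, a form of the hypoxia response core, was in none of the 8 windows at hand and in 19.6% of all windows. The form GCGTG, or CACGC, was not counted, and the *Kdr*, *Flt1* and *Esm1* windows hold it. A TATA box, TATAAA or TTTATA, was found 1 time, in the *Flt1* window, and is held by 13.6% of all windows. A match is a description of letters, and no match says nothing on which factors act there. The RefSeq start of *Tie1* lay 212 bases downstream of the GENCODE start used for positions, and that of *Pgf* 477 bases downstream. Most of the *Tie1* window and all of the *Pgf* window thus lie inside the gene as GENCODE gives it. *Angpt1* and *Angpt2* had no window.

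In GRCm38, *Vegfa* lies at chr17:46016993-46032369, *Pgf* at chr12:85166635-85177790, *Kdr* at chr5:75932827-75978458, *Flt1* at chr5:147561604-147726011 and *Tie1* at chr4:118471191-118490061, all on the minus strand. *Tek* lies at chr4:94739289-94874976 on the plus strand. *Angpt1* at chr15:42424723-42676977 and *Angpt2* at chr8:18690263-18741562, both minus, overlap *Gm17473* and *Mcph1* on the other strand, and *Esm1* at chr13:113209659-113218098, plus, overlaps *Gzmk* on the other strand. *Eng* at chr2:32646595-32682669, plus, overlaps *Mir1954*, *Gm47291* and *Gm26236* on its own strand and *Fpgs* on the other.

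Over all kept cells the 10 genes gave between 68 UMIs for *Angpt2* and 1455 for *Vegfa*. Where those UMIs lay fell into a few patterns. The map of levels by cell type places *Kdr*, *Flt1*, *Tie1* and the highest *Eng* in endothelium and *Tek* in endothelium and fibroblasts. It places *Esm1* in callus BMSCs, *Angpt1* in callus haematopoietic stem or progenitor cells and BMSCs, and *Vegfa* across many types.

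**Figure D1:**
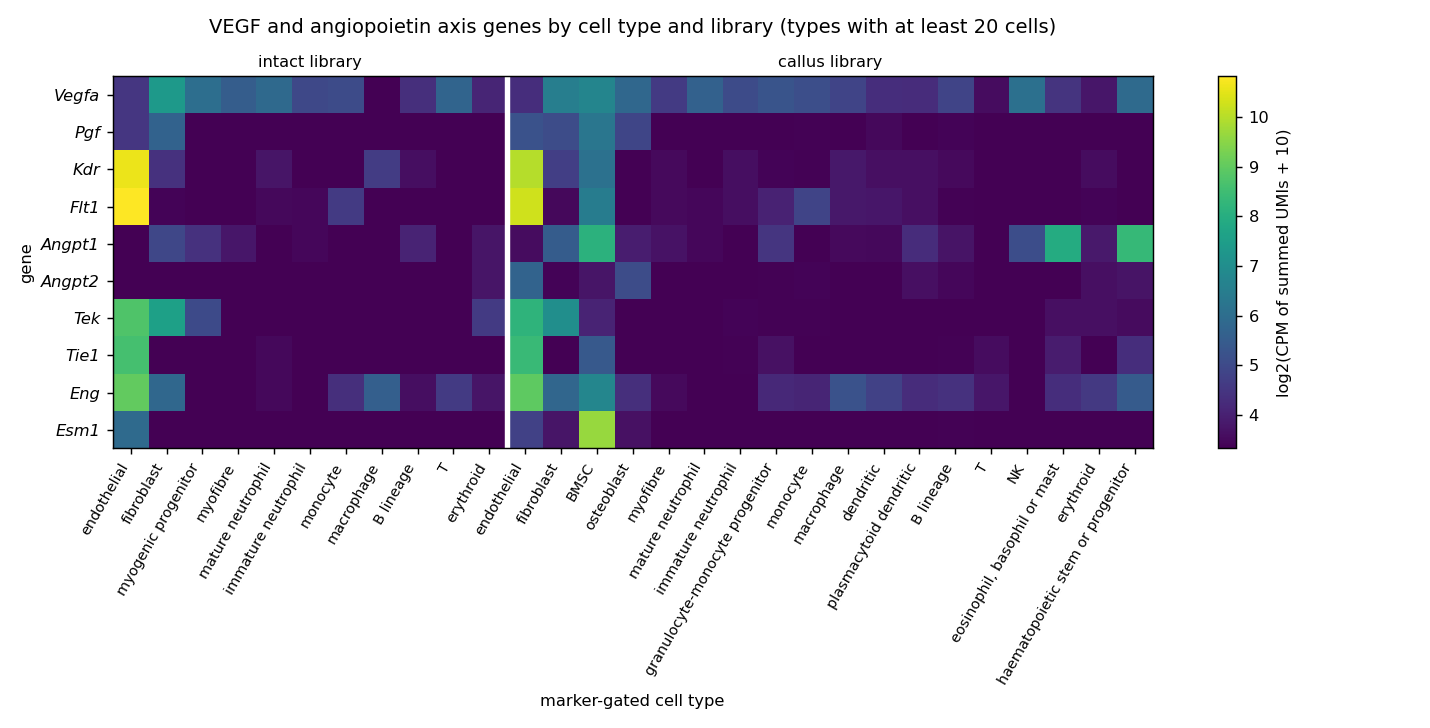
Heat map of the 10 genes (rows) in the marker-gated types with at least 20 cells (columns), intact library on the left and callus on the right. Color is log2(CPM + 10). *Flt1* in endothelium was the highest value, at 1799 CPM intact and 1228 CPM callus, and *Esm1* stood out in the callus BMSC column at 808 CPM.

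*Vegfa*, the main ligand, was highest in fibroblasts of the intact library, at 153 CPM (137 to 171) from 311 UMIs in 144 of 285 cells. Those cells held 68.7% of the library's 453 *Vegfa* UMIs. In the callus, fibroblasts were at 81.9 CPM (69.1 to 96.3), BMSCs at 96.0 (64.3 to 138), natural killer cells at 58.2 (39.0 to 83.5), haematopoietic stem or progenitor cells at 50.7 (34.5 to 72.0) and osteoblasts at 46.5 (32.6 to 64.4). With clusters in place of gates the progenitors were at 32.1 CPM. The intervals of neighbours in this callus order met throughout. In the intact library fibroblasts stood apart from the next type of at least 20 cells, myogenic progenitors, at 55.6 CPM (26.7 to 102) from 10 UMIs. Of the smaller intact types, 11 natural killer cells were at 94.5 CPM (30.7 to 221) from 5 UMIs, an interval that met that of fibroblasts, and 15 haematopoietic stem or progenitor cells at 70.9 CPM (36.6 to 124). *Pi16* fibroblasts, an adventitial type, had the most, at 191 CPM (166 to 219) intact and 132 CPM (103 to 165) callus, and tendon-type fibroblasts of the callus the least, at 31.1 CPM (16.6 to 53.2).

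Callus blood cells held 73.5% of the 1002 *Vegfa* UMIs of their library, against 26.5% in the intact library, where blood cells were 63.4% of cells against 77.6% in the callus. Of the UMIs of all genes, blood cells held 29408142 of 34287541 in the callus and 4810799 of 7518795 in the intact library. Mature neutrophils were at 49.3 and 39.8 CPM, immature neutrophils at 20.9 and 22.9 and monocytes at 22.6 and 24.7 in intact and callus. The counting intervals of each pair met. The 14 osteoclasts of the callus gave 51 *Vegfa* UMIs, or 120.1 CPM, but 21, 13 and 12 of them came from 3 cells and 9 osteoclasts had none. Endothelial cells, the target of the ligand, had 1 *Vegfa* UMI in the intact and 5 in the callus library. B lineage cells carried *Vegfa* in 9.02% of 543 callus cells at a median depth of 3331 UMIs, at 19.07 CPM (14.75 to 24.26). That interval met those of callus immature neutrophils (19.3 to 26.9) and monocytes (19.7 to 30.6). It lay below that of callus mature neutrophils (28.8 to 53.6). After each cell was thinned to 2000 UMIs, 24.1% of intact (19.1 to 29.8) and 14.6% of callus fibroblasts (9.98 to 20.3) kept a *Vegfa* UMI, against 0% of 238 intact B lineage cells, which allows up to 1.26%, and 2.52% of 516 in the callus. The unthinned shares in fibroblasts were 50.5% and 39.3%.

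*Pgf*, the ligand of the *Flt1* receptor, was a stromal transcript in the intact library, where fibroblasts held 84 of 86 UMIs. Their level was 41.4 CPM (33.0 to 51.3), and in the callus it was 23.1 CPM (16.6 to 31.4). BMSCs of the callus were at 66.2 CPM (40.4 to 102) from 20 UMIs in 10 cells and osteoblasts at 19.4 CPM (10.9 to 32.0) from 15 UMIs in 11 cells. Blood types together held 7 of 138 callus UMIs. The 14 UMIs of callus endothelial cells, 27.0 CPM, do not describe that type, since 10 came from 1 cell and 3 cells in all carried the gene. Likewise 38 UMIs lay in cells of no gate, of which 35 were in 1 cell.

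**Figure D2:**
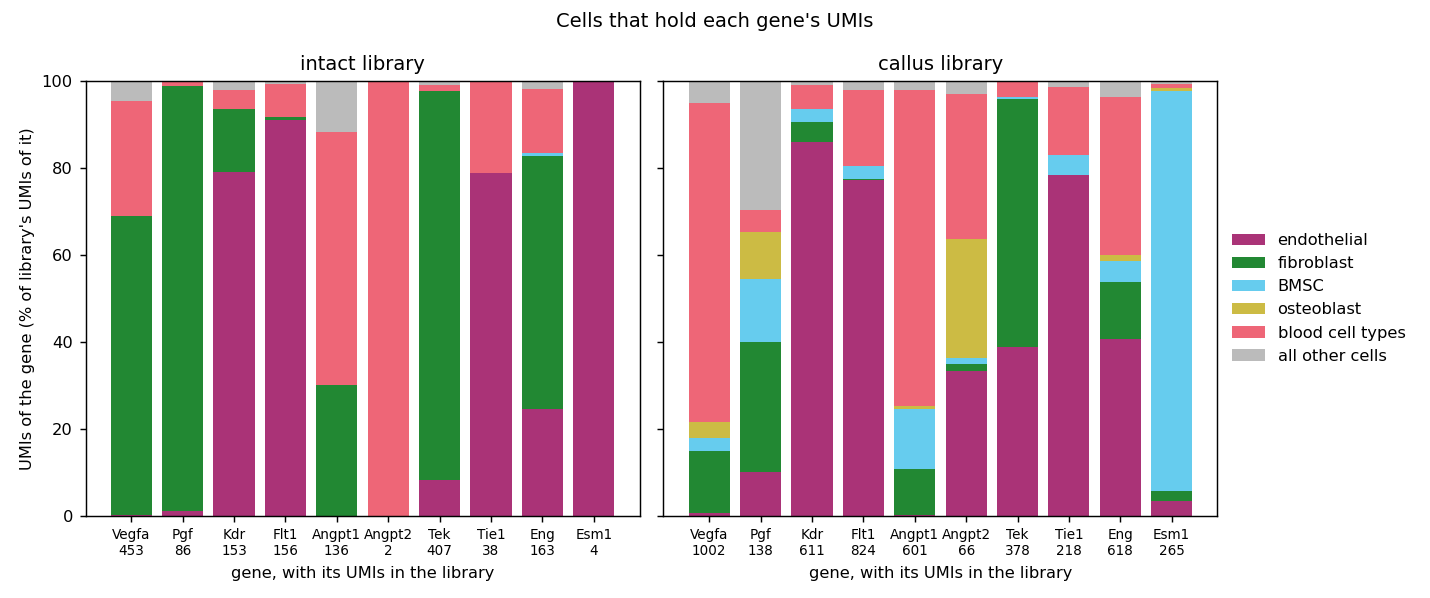
Stacked bars of the percentage of each gene's UMIs (y axis) that lay in each group of cells, intact library on the left and callus on the right, with the number of UMIs under each name. Endothelium held 79.1% and 85.9% of *Kdr* UMIs, fibroblasts 89.7% and 56.9% of *Tek* UMIs in intact and callus, and BMSCs 92.1% of callus *Esm1* UMIs. Intact *Angpt2* and *Esm1* rest on 2 and 4 UMIs.

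*Kdr* and *Flt1*, which encode VEGF receptors 2 and 1, were, with *Tie1*, the members most confined to endothelium. In endothelial cells *Kdr* was at 1533 CPM (1272 to 1832) in intact tissue and 1014 CPM (929 to 1104) in the callus, while *Flt1* was at 1799 (1516 to 2121) and 1228 (1135 to 1328). Relative to all other cells of the library, *Kdr* was 357-fold higher in intact and 398-fold higher in callus endothelium. The ratio for *Flt1* was 956-fold (95% interval of log2 9.11 to 10.81) in the intact and 221-fold (7.55 to 8.03) in the callus library. The other cells were a different mix in each library, with fibroblasts at 23.6% of intact and 6.5% of callus cells. These folds are thus read within a library and not between libraries. At 2000 UMIs per cell, 83.9% of callus endothelial cells (74.5 to 90.9) kept *Kdr* and 86.2% (77.2 to 92.7) kept *Flt1*, against unthinned shares of 97.0% and 94.1%. In B lineage cells the thinned shares in the callus were 0.194% and 0% of 516, the latter allowing up to 0.581%.

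Outside endothelium the receptors differed, apart from the BMSCs taken up with *Esm1*. *Flt1* was carried by monocytes at 14.4 CPM (5.79 to 29.6) intact and 18.8 CPM (14.5 to 24.03) callus, from 7 UMIs in 6 of 55 and 64 UMIs in 40 of 344 cells. Granulocyte-monocyte progenitors of the callus were next at 6.59 CPM (4.99 to 8.54). *Kdr* was nearly absent from callus monocytes, with 1 UMI, but present at low level in fibroblasts, at 10.9 CPM (6.80 to 16.4) and 16.4 CPM (10.96 to 23.5), in 11 intact and 15 callus cells. In tendon-type fibroblasts of the callus, gated by tendon markers, *Kdr* was at 31.1 CPM (16.6 to 53.2). *Flt1* had 1 and 2 UMIs in the fibroblasts of intact and callus.

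*Angpt1*, the activating TIE2 ligand, was highest in haematopoietic stem or progenitor cells and BMSCs and nearly missing from endothelium. Haematopoietic stem or progenitor cells were at 366 CPM (281 to 470) in the intact library, from 62 UMIs in all 15 cells, and at 317 CPM (274 to 366) in the callus, from 194 UMIs in 31 of 36 cells. BMSCs of the callus followed at 275 CPM (219 to 341), from 83 UMIs in 29 of 46 cells, and eosinophils, basophils or mast cells at 233 CPM (189 to 285). The intervals of these neighbours met, and all lay above callus fibroblasts at 35.6 CPM (27.3 to 45.5). With clusters in place of gates their order in the callus was another. BMSCs were then at 239 CPM (191 to 295), eosinophils, basophils or mast cells at 219 (170 to 279) and the progenitors at 213 (182 to 248). Granulocyte-monocyte progenitors of the callus were lower, at 12.1 CPM (9.93 to 14.7), and at 3.38 CPM with clusters in place of gates. Endothelial cells gave 0 UMIs in the intact library, which allows up to 38.0 CPM, and 1 UMI in the callus. Only 15 progenitors were caught in the intact library, so the intact value is the less precise.

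Among fibroblasts *Angpt1* went with the *Col15a1* type. *Col15a1* fibroblasts, a parenchymal type, were at 49.6 CPM (30.7 to 75.8) intact and 89.7 CPM (58.0 to 132) callus. *Pi16* fibroblasts were at 2.77 CPM (0.570 to 8.08) and 5.34 CPM (1.10 to 15.6), and tendon-type fibroblasts of the callus at 43.1 CPM (25.5 to 68.0). The *Pi16* intervals lay below those of *Col15a1* fibroblasts in both libraries.

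*Angpt2*, the context-dependent TIE2 ligand, was the scarcest member, with 2 UMIs in the intact and 66 in the callus library. Callus endothelial cells were at 42.5 CPM (26.6 to 64.3) from 22 UMIs in 13 cells, and osteoblasts at 23.3 CPM (13.8 to 36.8) from 18 UMIs in 12 of 36 cells. No osteoblast held more than 3 of them. Osteoblasts were deeply sequenced, at a median of 23145 UMIs, and at 2000 UMIs per cell 1 of 32 kept *Angpt2*. The 14 osteoclasts gave 6 UMIs, all in 1 cell. Intact endothelial cells had 0 UMIs, which allows up to 38.0 CPM, so a difference between the libraries was not detectable at this depth.

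*Tek*, the TIE2 receptor, was not confined to endothelium. The paper itself names Tie2 among the earlier markers of muscle fibroadipogenic progenitors, the cells with which it reports *Clec3b*-positive cells to overlap. Endothelial cells had the highest level, at 418 CPM (288 to 587) intact and 284 CPM (240 to 334) callus. Fibroblasts followed at 180 CPM (162 to 199) and 121 CPM (106 to 139). Because fibroblasts were many and deeply sequenced, they held 365 of 407 intact *Tek* UMIs (89.7%, 86.3 to 92.5) and 215 of 378 in the callus (56.9%, 51.7 to 61.9). *Tek* was seen in 171 of 285 intact and 93 of 214 callus fibroblasts. Every other type of at least 20 cells stood below fibroblasts with intervals that did not meet theirs, led by intact myogenic progenitors at 22.3 CPM (6.06 to 57.0) from 4 UMIs. B lineage cells, 258 intact and 543 callus, had 0 *Tek* UMIs.

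By type, *Pi16* fibroblasts were at 200 CPM (174 to 228) intact and 235 CPM (196 to 278) callus. *Col15a1* fibroblasts were at 156 CPM (121 to 198) and 96.9 CPM (63.8 to 141), and tendon-type fibroblasts of the callus at 19.1 CPM (8.26 to 37.7). Within the callus these 3 intervals did not meet one another, whereas those of *Pi16* and *Col15a1* fibroblasts met in the intact library. At 2000 UMIs per cell 35.9% of intact (27.7 to 44.9) and 41.5% of callus *Pi16* fibroblasts (29.4 to 54.4) kept a *Tek* UMI, against unthinned shares of 73.7% and 68.6%. With a looser filter of 200 genes and 20% mitochondrial UMIs the thinned shares were 26.1% and 23.5%, in the other order. That setting also drew the UMIs anew, and filter and draw were not told apart. The intervals of the libraries met under both filters.

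*Tek*-bearing fibroblasts held few UMIs of the defining endothelial transcripts *Pecam1* and *Cdh5*. Both are markers of the endothelial gate, so their scarcity in gated fibroblasts is set in part by the gating. The 171 intact cells held 1 *Pecam1* and 0 *Cdh5* UMIs and the 93 callus cells 2 *Pecam1* UMIs and 5 *Cdh5* UMIs, the last in 1 cell, whereas endothelial cells were at 1432 and 1425 CPM of *Pecam1* and 2750 and 1864 CPM of *Cdh5*. *Tie1* was at 0 UMIs in all 499 fibroblasts. All of the *Tek*-bearing fibroblasts carried *Clec3b*, at 1556 and 1540 CPM. Nearly all fibroblasts did so, 279 of 285 intact and 206 of 214 callus cells, at 1484 and 1284 CPM. Of the 10 endothelial markers, 5 were detected in intact and 7 in callus fibroblasts, at a summed 365 and 264 CPM. The sum was 393 CPM in intact fibroblasts with *Tek* and 310.4 CPM in those without, and 355 and 184 CPM in the callus. At least 3 endothelial markers were held by 2 intact fibroblasts with *Tek* and 2 without. In the callus all 3 such fibroblasts had *Tek*. Most of the sum over all fibroblasts was *Ramp2*, a co-receptor for adrenomedullin, at 278 and 205 CPM, with *Ecscr* at 61.6 and 37.8 CPM and *Clec14a* at 24.2 and 14.1 CPM, while *Emcn* and *Esam* were at 0 in both libraries. Mature neutrophil markers summed to 3580 CPM in the intact *Tek*-bearing fibroblasts and 180 CPM in those without *Tek*, with 3748 and 928 of the former's 4849 UMIs in 2 cells, and ran the other way in the callus at 259 and 3227 CPM. With fibroblasts of at least 3 such markers left out, *Tek* was at 181 CPM intact and 124 CPM callus.

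*Tie1*, the orphan relative of TIE2, was at 380.1 CPM (257 to 543) in endothelium of the intact library and 330.2 CPM (283 to 384) in that of the callus. It had 38 and 218 UMIs per library, of which 30 and 171 were endothelial. Haematopoietic stem or progenitor cells carried it at 9.82 CPM (3.60 to 21.4) in the callus, from 6 UMIs in 5 cells, and granulocyte-monocyte progenitors at 2.54 CPM (1.59 to 3.85). The 4 UMIs of intact haematopoietic stem or progenitor cells lay in 3 of 15 cells. In the 36 callus cells of that gate endothelial markers summed to 232 CPM, and 6 cells held at least 3 of them. The part of such cells in the *Tie1* level was not tested. The receptors of the family thus shared endothelium and parted in fibroblasts, where *Tek* had 365 and 215 UMIs and *Tie1* 0.

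*Eng*, which encodes the TGF-beta family co-receptor endoglin, had the broadest spread of the receptors. Endothelial cells were at 507 CPM (362 to 690) intact and 485 CPM (427 to 549) callus, BMSCs at 99.3 CPM (67.0 to 142) and fibroblasts at 46.9 CPM (37.9 to 57.3) and 45.7 CPM (36.3 to 56.8). The BMSC value was 62.5 CPM (36.4 to 100) without the 5 cells that had a *Cdh5* UMI, which held 13 of its 30 UMIs, and 55.6 CPM with clusters in place of gates. Macrophages were at 37.8 CPM (12.3 to 88.3) and 26.9 CPM (16.4 to 41.5). Among fibroblasts it was highest in the *Col15a1* type: these were at 125 CPM (93.8 to 164) and 111 CPM (75.6 to 158) against 22.1 CPM (14.2 to 32.9) and 32.0 CPM (19.0 to 50.6) in *Pi16* fibroblasts, with intervals that did not meet, and tendon-type fibroblasts of the callus were at 45.4 CPM (27.4 to 71.0). B lineage cells were at 2.22 CPM from 2 UMIs intact and 10.98 CPM from 38 UMIs callus.

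*Esm1*, known as a VEGF-responsive marker of sprouting endothelial tip cells, was not mainly endothelial here. The 46 BMSCs of the callus held 244 of the library's 265 *Esm1* UMIs (92.1%), a level of 808 CPM (710 to 916), with UMIs in 32 cells and at most 35 in any 1 cell. Callus endothelial cells were at 17.4 CPM (7.95 to 33.0) from 9 UMIs in 4 cells, and the 4 UMIs of intact endothelium were in 1 cell. Fibroblasts gave 0 UMIs intact and 6 in the callus, all in 1 cell. At 2000 UMIs per cell 52.4% of callus BMSCs (36.4 to 68.0) kept *Esm1*, against 69.6% unthinned, and 0% of 516 callus B lineage cells did. The intact library had 1 BMSC, so no level there can be set beside the callus.

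Endothelial markers were present in some of these cells. All 10 markers were detected in the BMSC gate, at a summed 414 CPM, and 5 of the 46 cells held the 28 *Cdh5* UMIs. Those 5 cells also held every *Kdr*, *Flt1*, *Tek* and *Tie1* UMI of the gate, at 18, 24, 2 and 10 UMIs, and 13 of its 30 *Eng* UMIs. The other 41 cells were at 838 CPM (733 to 954) of *Esm1* and 290.3 CPM (230 to 362) of *Angpt1*, with 0 UMIs of all 4 receptors. Mature neutrophil markers summed to 12378 CPM in the gate, and their part in these levels was not tested. *Esm1* and *Angpt1* were both seen in 23 of the 46 cells, *Esm1* alone in 9, *Angpt1* alone in 6 and neither in 8.

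**Figure D3:**
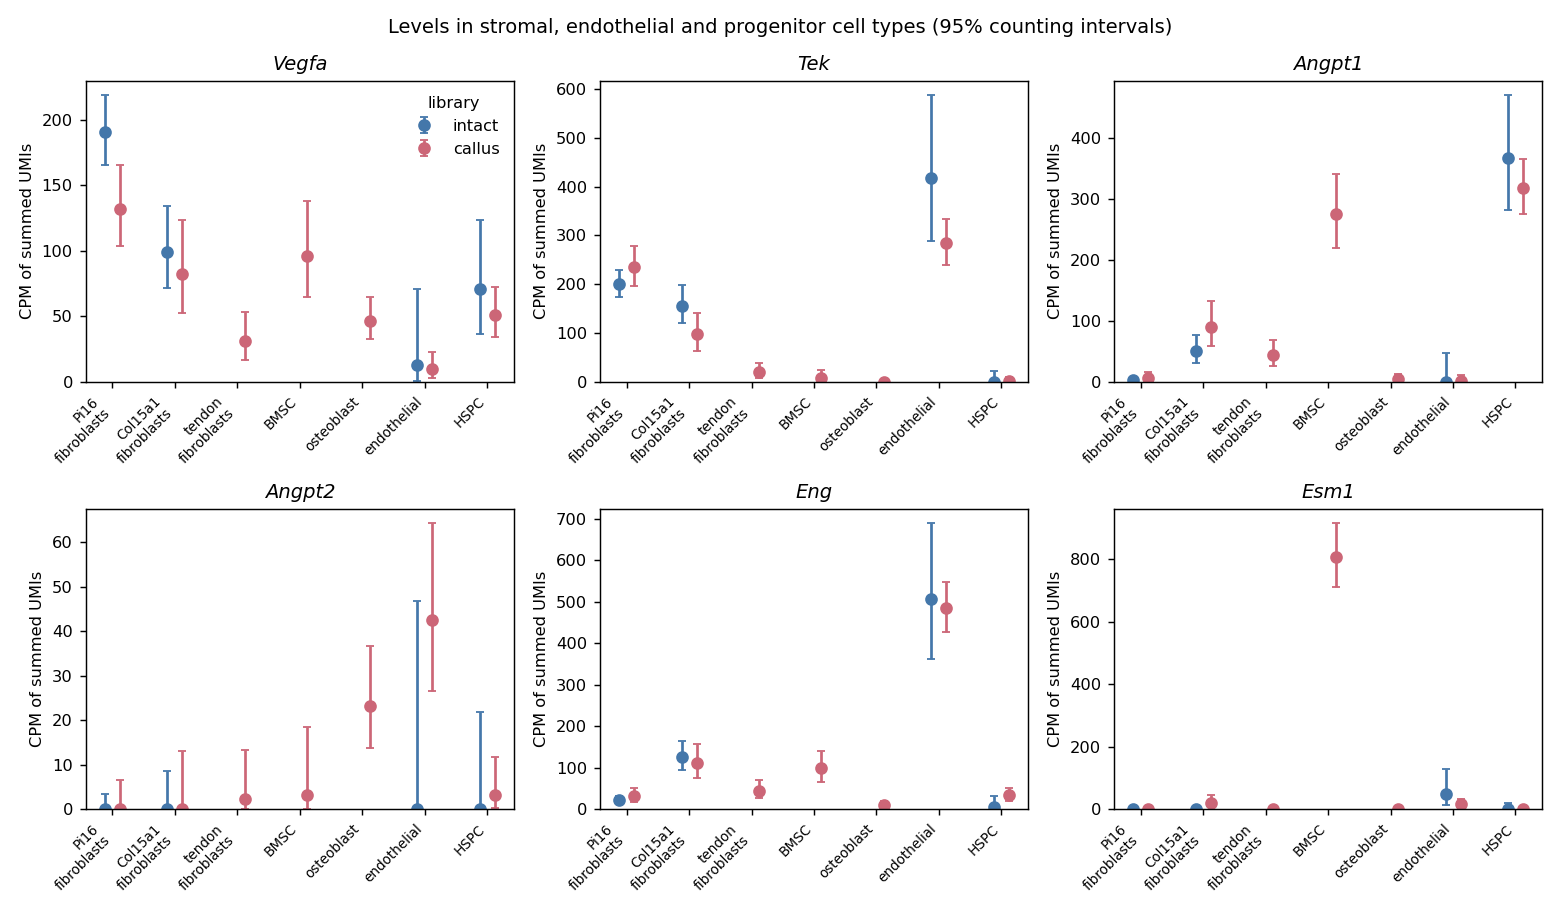
CPM (y axis) of 6 genes in 7 cell types (x axis), intact in blue and callus in red, with 95% Poisson intervals and each panel on its own scale from 0. *Tek* was high in *Pi16* fibroblasts (200 and 235 CPM) and endothelium, *Angpt1* in BMSCs and haematopoietic stem or progenitor cells (HSPC), *Angpt2* in callus endothelium and osteoblasts, and *Esm1* in callus BMSCs. Types with under 10 cells in a library have no point.

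Within endothelium *Kdr* and *Flt1* were seen together in most cells, and all 4 receptors in fewer. Of the 29 intact cells 26 had both *Kdr* and *Flt1*, as had 94 of the 101 callus cells, and *Tek* and *Tie1* were both seen in 11 and 53. All 4 receptors were detected in 11 intact cells (37.9%) and 50 callus cells (49.5%), and 0 cells lacked all 4. At 2000 UMIs per cell the shares with all 4 were 5 of 18 and 10 of 87, so the unthinned shares moved with depth, which was higher in the callus.

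Part of the endothelial cells could be placed by marker lists into arterial, sinusoidal and muscle capillary types. Of the 29 intact cells 9, and of the 101 callus cells 42, fell in none of these types. The intact library had 4 arterial and no sinusoidal cells. In the callus *Kdr* was at 1348 CPM (1150 to 1570) in the 27 muscle capillary cells, 923 (754 to 1120) in the 21 arterial cells and 623 (447 to 846) in the 11 sinusoidal cells. *Flt1* followed the same order at 1569 (1355 to 1807), 1174 (982 to 1394) and 836 (630 to 1088). The capillary interval of *Kdr* lay above both others, which met, and that of *Flt1* above the sinusoidal one alone. *Tek* was at 310.4, 278 and 274 CPM, *Tie1* at 302, 197 and 349.7 CPM and *Eng* at 457.5, 412 and 638.5 CPM in capillary, arterial and sinusoidal cells, each with intervals that met. *Angpt2* had 7, 2 and 5 UMIs. The capillary type was 16 of 29 intact cells and 27 of 101 callus cells.

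Callus over intact was read within a type, for genes with at least 20 UMIs summed over both libraries, and called at a ratio of 2 or more. In endothelium 6 members had enough UMIs, and 0 were called higher and 0 lower, where 13% of the 5122 genes tested were called higher and 6.27% lower. Their median log2 ratio was -0.38, with *Angpt2* at the bound that 0 intact UMIs allow, against 0.09 over all genes tested. *Kdr* was at a log2 ratio of -0.60 (-0.88 to -0.30) and *Flt1* at -0.55 (-0.82 to -0.28), both short of the call with counting intervals below 0. *Tek* at -0.56 (-1.11 to 0.03), *Tie1* at -0.20 (-0.77 to 0.41) and *Eng* at -0.06 (-0.55 to 0.46) had intervals that held 0. Within muscle capillary cells *Kdr* was at 1688 CPM (1325 to 2119) intact and 1348 CPM callus and *Flt1* at 1642 (1285 to 2068) and 1569 CPM, with intervals that met. The share of that type and the depth of the cells differed between the libraries, and their part in the lower values was not tested.

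In fibroblasts 6 members were tested and 0 were called in either direction, where 5.33% of 10157 genes were called higher and 2.61% lower. The members' median log2 ratio was -0.30 against 0.04 over all genes tested. *Vegfa* was lower in the callus by value, with a log2 ratio of -0.91 (-1.20 to -0.62), as were *Pgf* at -0.84 (-1.42 to -0.28) and *Tek* at -0.57 (-0.82 to -0.32). *Angpt1* was higher at 0.81 (0.22 to 1.42), and *Kdr* at 0.59 (-0.26 to 1.46) and *Eng* at -0.04 (-0.48 to 0.41) had intervals that held 0. The fibroblast types differed in share: *Pi16* fibroblasts were 46.7% of intact and 32.7% of callus fibroblasts, and tendon-type cells 2.81% and 20.1%. Within *Pi16* fibroblasts *Tek* was at a log2 ratio of 0.23 (-0.09 to 0.55), *Vegfa* at -0.54 (-0.94 to -0.15) and *Pgf* at -1.17 (-2.21 to -0.24). Within *Col15a1* fibroblasts *Tek* was at -0.69 (-1.39 to -0.02), *Vegfa* at -0.27 (-1.07 to 0.50) and *Angpt1* at 0.85 (-0.04 to 1.76). *Pgf* in *Pi16* fibroblasts was past 2-fold lower, 1 of 4 members tested there, where 3.75% of 7733 genes were, and rests on 12 callus UMIs. In *Col15a1* fibroblasts 0 of 5 members were called, where 5.56% of 5326 genes were higher and 4.84% lower, and 3.04% were higher in *Pi16* fibroblasts. In fibroblasts of neither type nor tendon *Pgf* was again lower, at -1.12 (-2.38 to 0.04), as 1 of 5 members where 4.11% of 6326 genes were, and 0 were higher, where 7.19% of genes were. *Tek* in that group was lower in value, at 93.7 against 170 CPM (log2 -0.86, -1.41 to -0.33). The lower *Tek* of all callus fibroblasts was thus seen in value in the *Col15a1* type and in this group but not in the *Pi16* type, whereas *Vegfa* was below 0 in value in both types.

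In other types the members with enough UMIs were few. *Eng* was higher in the callus in B lineage cells, at 10.98 against 2.22 CPM (log2 2.31, 0.36 to 5.41), 1 of 2 members tested where 10.4% of 9478 genes were, and in erythroid cells at 13.6 against 3.55 CPM from 22 and 1 UMIs, where 36.8% of 5982 genes were. *Vegfa* was lower in myofibres at 14.2 against 35.9 CPM from 10 UMIs each (log2 -1.34, -2.76 to 0.08), where 3.31% of 3808 genes were. In B lineage and erythroid cells 0 members were lower, where 6.11% and 3.29% of genes were, and 21% of genes were higher in myofibres, where 0 members were. In mature neutrophils, immature neutrophils, monocytes and macrophages 0 members were called in either direction, where 7.67%, 22.4%, 10.7% and 12.6% of genes were higher and 1.11%, 2.14%, 2.77% and 7.07% lower.

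**Figure D4:**
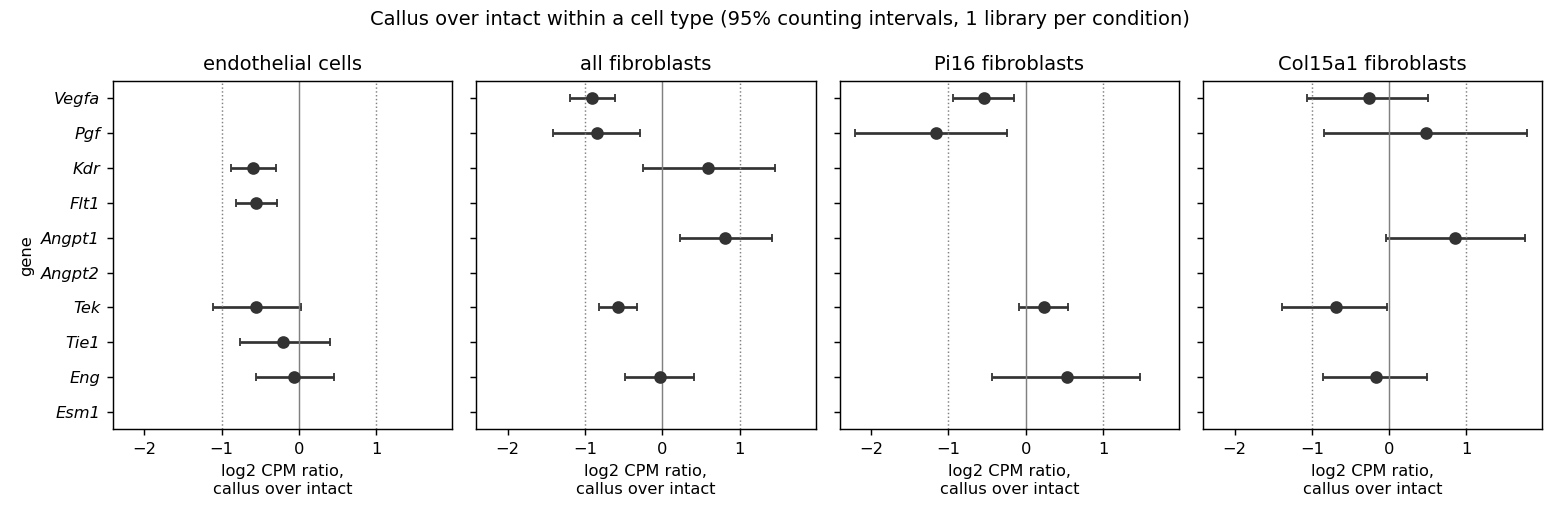
Log2 ratio of CPM, callus over intact (x axis), of each gene (y axis) in endothelial cells, all fibroblasts and 2 fibroblast types, with 95% counting intervals from 1 library per condition. Dotted lines mark 2-fold, and genes under 20 UMIs or with 0 UMIs on one side have no point. *Tek* was below 0 in all fibroblasts (-0.57) and above 0 in *Pi16* fibroblasts (0.23).

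Endothelial cells were then set against all other cells of their library. Of the members with enough UMIs, 5 of 8 were at least 2-fold higher in endothelium and 1 lower in the intact library, and 8 of 10 were higher and 2 lower in the callus. Over all genes tested, 24.3% were called higher and 8.37% lower in the intact library, and 25.2% higher and 14.9% lower in the callus, so a 2-fold lead alone was common. The members called higher in both were *Kdr*, *Flt1*, *Tek*, *Tie1* and *Eng*, with *Tie1* at 353-fold and 237-fold, *Eng* at 30.7-fold and 44.6-fold and *Tek* at 8.32-fold and 41.5-fold. The mix of other cells differed between the libraries, and their *Tek* was at 50.3 CPM intact and 6.84 CPM callus. The folds of intact and callus are thus not a measure of change in endothelium. In the callus *Angpt2* at 32.6-fold, *Pgf* at 7.36-fold and *Esm1* at 2.29-fold were also called, of which *Pgf* rests on the 1 cell given above. *Vegfa* was lower in endothelium in both, at a log2 ratio of -2.26 (-7.57 to 0.22) and -1.61 (-3.24 to -0.38), and *Angpt1* in the callus at -3.20 (-8.51 to -0.72).

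Other genes of the pathway were read in 4 lists, beside the 24.3% of all genes higher in endothelium in the intact library and 25.2% in the callus. In endothelium over other cells, 9 of 11 tested receptors and co-receptors were higher in the intact library and 10 of 12 in the callus, and 1 was lower in each, *Itgav*, an integrin subunit. Their median log2 ratio was 3.50 and 3.53, against 0 and 0.09 over all genes tested. *Ramp2*, of this list, is itself a marker of the endothelial gate, so its lead there is set in part by the gating. In the callus *Nrp1*, the neuropilin that binds VEGF, was at 753 CPM, 21.6-fold above other cells, *Nrp2* at 357 CPM, 8.54-fold, and *Plxnd1*, a semaphorin receptor, at 442 CPM, 13.8-fold. Of the endothelial signaling and tip cell genes, 7 of 8 were higher in the intact and 9 of 10 in the callus library, with *Sh2d2a* lower in the callus at 0 UMIs, and medians of 3.91 and 4.59. Of the ligands 1 of 4, near that share, and 4 of 7 were higher, among them *Pdgfb*, a recruiter of mural cells, at 329 and 311 CPM. Of the oxygen-sensing genes 3 of 7 and 4 of 7 were higher and 0 lower, with medians of 0.65 and 1.24.

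Callus over intact within endothelium, where 13% of all genes tested were higher and 6.27% lower, called 1 of 3 ligands, 0 of 10 receptors, 1 of 8 signaling and tip cell genes and 0 of 4 oxygen-sensing genes higher, and 0 of each lower, with medians of 0.40, -0.19, 0.20 and 0.003. *Apln*, the ligand of the apelin receptor, had 26 callus and 0 intact UMIs and was not called. The called ligand was *Adm*, adrenomedullin, at 52.1 against 25.3 CPM from 27 and 2 UMIs (log2 1.04, -0.95 to 4.16). *Plvap*, a component of the diaphragms of fenestrated endothelium, was at 479 against 63.4 CPM (log2 2.92, 1.68 to 4.55). Muscle capillary cells were 16 of 29 intact and 27 of 101 callus endothelial cells, and 9 and 42 cells fell in no endothelial type. The part of such differences in endothelial type in these values was not tested. In fibroblasts, where 5.33% of all genes were higher and 2.61% lower, 1 of 4 ligands, 2 of 9 receptors, 1 of 3 signaling genes and 0 of 6 oxygen-sensing genes were higher, and 0, 1, 0 and 1 lower, with medians of -0.17, 0.26, 0.69 and 0.27. *Vegfc*, a ligand best known for lymphatic vessels, was at 14.1 against 3.95 CPM (log2 1.84, 0.65 to 3.20), and *Nrp2*, *Plxnd1* and *Angptl4* were also called higher, at 12.98 against 3.95 CPM, 15.8 against 5.42 CPM and 10.2 against 3.45 CPM. *Calcrl*, the receptor that pairs with *Ramp2*, was called lower at 80.7 against 163 CPM (log2 -1.01, -1.31 to -0.72), as was *Epas1*, which encodes HIF-2alpha, at 6.21 against 13.3 CPM from 11 and 27 UMIs. *Hif1a* was at 182 against 133 CPM. Among receptors, 0 of 7 were lower in *Pi16*, 0 of 6 in *Col15a1* and 1 of 7 in fibroblasts of neither type nor tendon. In that order 1, 0 and 1 were higher. Of the oxygen-sensing genes 0 of 5, 0 of 4 and 0 of 4 were lower, and 0, 1 and 1 higher. Of the ligands 1 of 3, 0 of 1 and 0 of 3 were higher, and 0 lower. Over all genes tested there, 3.75%, 4.84% and 4.11% were lower and 3.04%, 5.56% and 7.19% higher. *Vegfc* and *Epas1* were named because they were called, after their values were seen, and so were *Itgav*, *Sh2d2a*, *Plvap*, *Nrp2* and *Plxnd1* in fibroblasts. The fibroblast types differed in share between the libraries, and their part in the values of all fibroblasts was not tested.

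The genes most like each member were sought by Pearson correlation of log2(CPM + 10) over the 29 groups of a type and library with at least 20 cells, among 12065 genes. These groups share libraries and markers, so the values are descriptions. *Kdr* ran closest with *Ushbp1* (0.98), *Fgd5* and *Ptprb*, the last a phosphatase that acts on TIE2, and *Flt1* with *Nos3* (0.99), endothelial nitric oxide synthase, *Ushbp1* and *Cyyr1*. *Tie1* ran with *Emcn* (0.997), itself a gating marker, *Robo4* and *Aqp7*. *Tek* ran with *Cyb561* (0.99), *Ramp2* (0.98), also a gating marker, and *Prrg3*, and *Eng* with *Iigp1* (0.93), *4931406P16Rik* and *Kdr*. *Esm1* ran with *Lepr* (0.96), a BMSC marker used in the gate, *Vegfc* (0.93) and *Foxc1*. *Pgf* ran with *Nav3* (0.97), *Zfp423* and *Limch1*, and *Angpt1* with *H1fx* (0.87), *Slc22a3* and *Mex3a*. *Vegfa* had the weakest nearest neighbours, *Ccdc8* (0.73), *Spon1* and *Hoxa10*. *Angpt2*, under 100 UMIs, was left out.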

How the data were processed

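Per the labels, tdTomato-sorted cells of 1 intact and 1 callus library were profiled with the 10x 3′ kit. The authors aligned and counted the reads with Cell Ranger (version 6.0.0 per the file headers; mm10) and deposited raw UMI counts for each cell, which are not normalized. No doublet removal by the authors is given in the sources used here, and none was applied in the values reported.

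Deposited cells, 1872 intact (12112002 UMIs) and 3987 callus (36714322 UMIs), were filtered to those of 500 genes or more with mitochondrial UMIs up to 10%. For gating only, log values at 10000 UMIs per cell were used. A cell joined the type whose marker list had the highest mean z-score (clipped at 5) if this was at least 0.5 and 3 markers had a UMI. Types within fibroblasts and endothelium needed 0.25 and 2 markers. None of the 10 genes is a gating marker, whereas *Ramp2*, of the receptor list, marks the endothelial gate. *Dll4* and *Aplnr*, of the pathway lists, mark types within endothelium. In all, 31 intact and 89 callus cells stayed ungated. These limits were set after cells had been seen. The genes and lists were chosen with earlier results of these data known.

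CPM have exact Poisson intervals, shares exact Clopper-Pearson intervals and ratios exact conditional binomial intervals, all at 95%, with 3 counts standing for a count of 0 in ratios and limits. A ratio of 2 with at least 20 UMIs was called. Shares were also taken after thinning to 2000 UMIs per cell (seed 0), leaving out shallower cells. Each thinned share rests on a single random draw, which its interval does not cover. With 1 library per condition there is no test. Named pathway genes are the 3 of each list with most UMIs, apart from those said to be otherwise chosen. The ratio and thinning code was tested on simulated data. The alternatives were other cell filters, Leiden clusters in place of gates, removal of high Scrublet scores, other denominators and cell means, UMI minimums, a stricter endothelial gate and other thresholds and depths for shares. 2 more were added after seeing the data: BMSCs with a *Cdh5* UMI, and fibroblasts with a *Pecam1* or *Cdh5* UMI, left out. Positions come from GENCODE M21 (GRCm38), which holds 99.6% of the gene identifiers. Tools were Python 3.11.15, numpy 2.4.6, scipy 1.17.1, pandas 2.3.3, scanpy 1.11.5 and matplotlib 3.10.9.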

Additional observations from a re-analysis of the deposited data

Results flagged for a closer look

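UMIs of 9 members appeared in the 1357 barcodes that the cell filter removed, which no comparison used: 16 of *Vegfa*, 6 of *Pgf*, 23 of *Kdr*, 22 of *Flt1*, 13 of *Angpt1*, 5 of *Angpt2*, 4 of *Tek*, 11 of *Eng* and 5 of *Esm1*. *Tie1* had 2, under the limit of 3 counts. Over the 7019988 UMIs of these barcodes the levels ran from 0.285 CPM for *Tie1* to 3.28 CPM for *Kdr*, below the level in kept cells for each of the 10 genes. The most UMIs in 1 removed barcode were 8, of *Flt1*.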

How the results depend on the processing

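Of the levels recomputed under the alternatives, 307 of 322 stayed within the interval of the value reported, as did 140 of 140 callus over intact ratios and 27 of 42 thinned shares, and the 10 recomputed counts of calls moved by less than 1.5 times. Levels were recomputed for a chosen part of the cell types and only where the value reported had at least 20 UMIs. *Angpt2* in osteoblasts and *Kdr* and *Tie1* in BMSCs had fewer, so the tally does not cover them. The 20 ratios under the lower minimum of 5 UMIs were bound to stay, since that setting only changes which genes are read. Another 26 levels left out fibroblasts with a *Pecam1* or *Cdh5* UMI and could hardly move. *Pecam1* was in 2 of 285 intact and 4 of 214 callus fibroblasts, and *Cdh5* in 0 and 1. Levels of *Pi16* and *Col15a1* fibroblasts were also counted beside those of all fibroblasts. 1 ratio took another sign, *Eng* in endothelium with Leiden clusters, at 0.02. With a mean over cells of each cell's CPM, callus values were 1159 for *Kdr* and 1419 for *Flt1* in endothelium and 27.73 for *Flt1* in monocytes. With Leiden clusters in place of gates, callus values were 675.5 for *Esm1* in BMSCs, 213.4 for *Angpt1* in haematopoietic stem or progenitor cells and 13.44 for *Flt1* in monocytes. *Flt1* in callus BMSCs, 79.4 CPM with the gates, was at 11.1 CPM with clusters, 137 CPM as a mean over cells and 0 CPM without cells that had a *Cdh5* UMI. Thinned shares moved too. For *Tek* in *Pi16* fibroblasts, intact and callus, they were 26.12% and 23.53% with a looser filter of 200 genes and 20% mitochondrial UMIs, 7.812% and 7.692% when 2 UMIs were needed and 20.45% and 18.57% at 1000 UMIs per cell. When 2 UMIs were needed they were 57.47% for *Kdr* and 64.37% for *Flt1* in callus endothelium, 26.19% for *Esm1* in callus BMSCs, and 3.831% and 2.01% for *Vegfa* in fibroblasts. At 1000 UMIs per cell they were 58.16% for *Kdr*, 71.43% for *Flt1*, and 15.71% and 9.39% for *Vegfa*. Needing 2 UMIs lowers a share by definition, and a lower depth leaves fewer UMIs to find. The looser filter also drew the thinned UMIs anew. Beyond this, the cause of the shifts was not tested. No paired analysis was possible because each condition had 1 library in which the animals were pooled, and no replicate could be left out. *Angpt2* and *Esm1* rest on 2 and 4 UMIs in the intact library, which held 1 BMSC.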
